A study of Rattus norvegicus with 32 samples.

Results

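The 10 genes examined here encode the machinery that cuts proteins into peptides and loads them onto MHC class I molecules: the immunoproteasome subunits *Psmb8*, *Psmb9* and *Psmb10*, the proteasome activator subunits *Psme1* and *Psme2*, the peptide transporter subunits *Tap1* and *Tap2*, tapasin (*Tapbp*), beta-2-microglobulin (*B2m*) and the transcriptional activator *Nlrc5*. They were chosen by name for their place in this pathway, with earlier results of these data known. All 10 were found among the 17245 genes measured. Transcripts of the intestinal mucosa of 32 male rats were quantified by microarray (Affymetrix Rat Gene 1.1 ST), 1 for each animal. They comprised 16 Zucker-Lepr *fa*/*fa* (ZO) rats given a probiotic by mouth each day for 30 days, 4 ZO rats given placebo for 30 days, 4 Zucker lean Lepr +/*fa* (ZL) rats given placebo for 30 days, 4 ZO rats at baseline and 4 ZL rats at baseline. ZO rats lack a working leptin receptor, and ZL rats carry the *fa* allele on one chromosome only. The labels give an age of 6 weeks and weights of 168 to 180 g for all groups alike, so time enters only through the names of the groups. No strain of probiotic is labelled for single rats, and the 16 probiotic rats were therefore kept as a single group that may hold several strains.

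Proteasomes degrade cytosolic proteins, and in cells exposed to interferon the catalytic subunits *Psmb5*, *Psmb6* and *Psmb7* are replaced by *Psmb8*, *Psmb9* and *Psmb10*, which changes the peptides produced. *Tap1* and *Tap2* form the channel that carries these peptides into the endoplasmic reticulum, where tapasin holds the empty class I heavy chain and *B2m* next to the channel until a peptide binds. Interferons raise the transcription of the 10 genes, and *Nlrc5* that of some of them. The surface of gut epithelial cells and the lymphocytes among them displays the peptides to CD8+ T cells. As the arrays measured whole mucosa, fewer cells of a type and less RNA per cell cannot be told apart.

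The interferon-stimulated response element (ISRE) is a promoter motif read by the interferon regulatory factors and Stat proteins. It was searched as GAAA, any 2 bases and GAAA again on both strands of the RefSeq promoters (build GRCr8, 250 bases before to 50 after each gene's start), which held 9 of the 10 genes (all but *Nlrc5*). A match lay in 7 of the 9 promoters (77.8%), against 3.92% of all 33469 promoters of this length. The stretches with a match are shown because they are what these genes share in sequence and the rest of the antigen presentation lists mostly do not. They run 5′ to 3′ on the strand of the gene with the match in capitals, which reads as the reverse complement in *Psmb8* and *Tap1*, and they end at the start site at the latest or, in *Psmb8*, where the match crosses it.
*Psmb8* (chr20:4657026-4657060, minus strand): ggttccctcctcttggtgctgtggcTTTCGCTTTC
*Psmb10* (chr19:50743293-50743390, minus strand): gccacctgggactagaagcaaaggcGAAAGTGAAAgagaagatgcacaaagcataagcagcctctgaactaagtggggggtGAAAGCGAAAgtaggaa
*Psme2* (chr15:33052770-33052829, minus strand): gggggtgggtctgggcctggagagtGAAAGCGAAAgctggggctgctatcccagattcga
*Tap1* (chr20:4668630-4668689, minus strand): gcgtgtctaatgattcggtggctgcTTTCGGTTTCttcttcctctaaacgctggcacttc
*Tap2* (chr20:4652303-4652362, minus strand): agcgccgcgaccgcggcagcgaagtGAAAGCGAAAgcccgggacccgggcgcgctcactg
*Tapbp* (chr20:4967878-4967928, minus strand): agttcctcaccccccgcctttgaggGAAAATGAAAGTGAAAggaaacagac
*B2m* (chr3:129549155-129549214, plus strand): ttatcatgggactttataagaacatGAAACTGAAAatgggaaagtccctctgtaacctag
*Psmb10* held 2 separate matches and *Tapbp* 2 that overlap. *Psmb9* and *Psme1* held none in this window, which says only that these letters are not in it. The same motif lay in 15 of 19 promoters of interferon-stimulated genes, 2 of 13 of the constitutive proteasome core and 0 of 8 of the MHC class II genes. The gamma-interferon activated site, searched as TTCNNNGAA, lay in 1 of the 9 promoters (*Psmb8*), against 8.87% of all promoters. By their order in RefSeq (GRCr8), *Tap2*, *Psmb8*, *Tap1* and *Psmb9* follow one another on chromosome 20 between the class II genes *RT1-DOb* and *RT1-DMb*, and *Tapbp* lies on the same chromosome. *Tap1* and *Psmb9* face away from each other and their promoter windows share 44 bases. *Psme1* and *Psme2* lie on chromosome 15 with only *Emc9* between them, *Psmb10* and *Nlrc5* on chromosome 19, and *B2m* on chromosome 3.

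All levels below are RMA signals on the log2 scale, where a difference of 1 is a doubling, and levels of different genes cannot be set against each other. Array medians ran from 4.79 to 4.97, and the lowest correlation between any pair of arrays was 0.979. The enterocyte markers *Vil1* (12.03 to 12.39) and *Fabp2* (13.17 to 13.41) were high in every rat. Rat C13, a ZL rat given placebo, stood apart in the bile acid binding protein *Fabp6* (8.71, against a median of 13.19 over all rats) and the gut hormone *Pyy* (5.17, against 9.35), so values without it are given beside the results that it moves most.

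Calls were made at a limma p under 0.05 after Benjamini-Hochberg adjustment across the 29214 probe sets. None of the 10 genes was called in any of the 9 comparisons, and their levels overlapped in all 7 comparisons between a pair of groups. Of all probe sets, the groups did not overlap in 9.98% for ZO placebo against ZO baseline, 5.88% for ZL placebo against ZL baseline, 7.9% for ZO placebo against ZL placebo, 3.6% for ZO baseline against ZL baseline, 0.0685% for ZO probiotic against ZO placebo, 1.4% for ZO probiotic against ZL placebo and 1.96% for ZO probiotic against ZO baseline. The share of all probe sets called was 1.36% for ZO placebo against ZO baseline, for ZL placebo against ZL baseline 0.911%, for the difference between these changes 0.00342%, for their mean 4.02%, for ZO placebo against ZL placebo 1.04%, for ZO baseline against ZL baseline 0%, for ZO probiotic against ZO placebo 0.00342%, for ZO probiotic against ZL placebo 4.66% and for ZO probiotic against ZO baseline 5.61%. Without C13 the share was 0.288% for ZL placebo against ZL baseline and 2.34% for ZO probiotic against ZL placebo, and with only the groups compared in the model it was 0% for ZL placebo against ZL baseline and 1.51% for the mean change. With so few probe sets called in most comparisons, 0 of 10 is near the background, and the results below are the levels, the sizes of difference that the intervals allow, and how the genes varied from rat to rat.

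**Figure D1:**
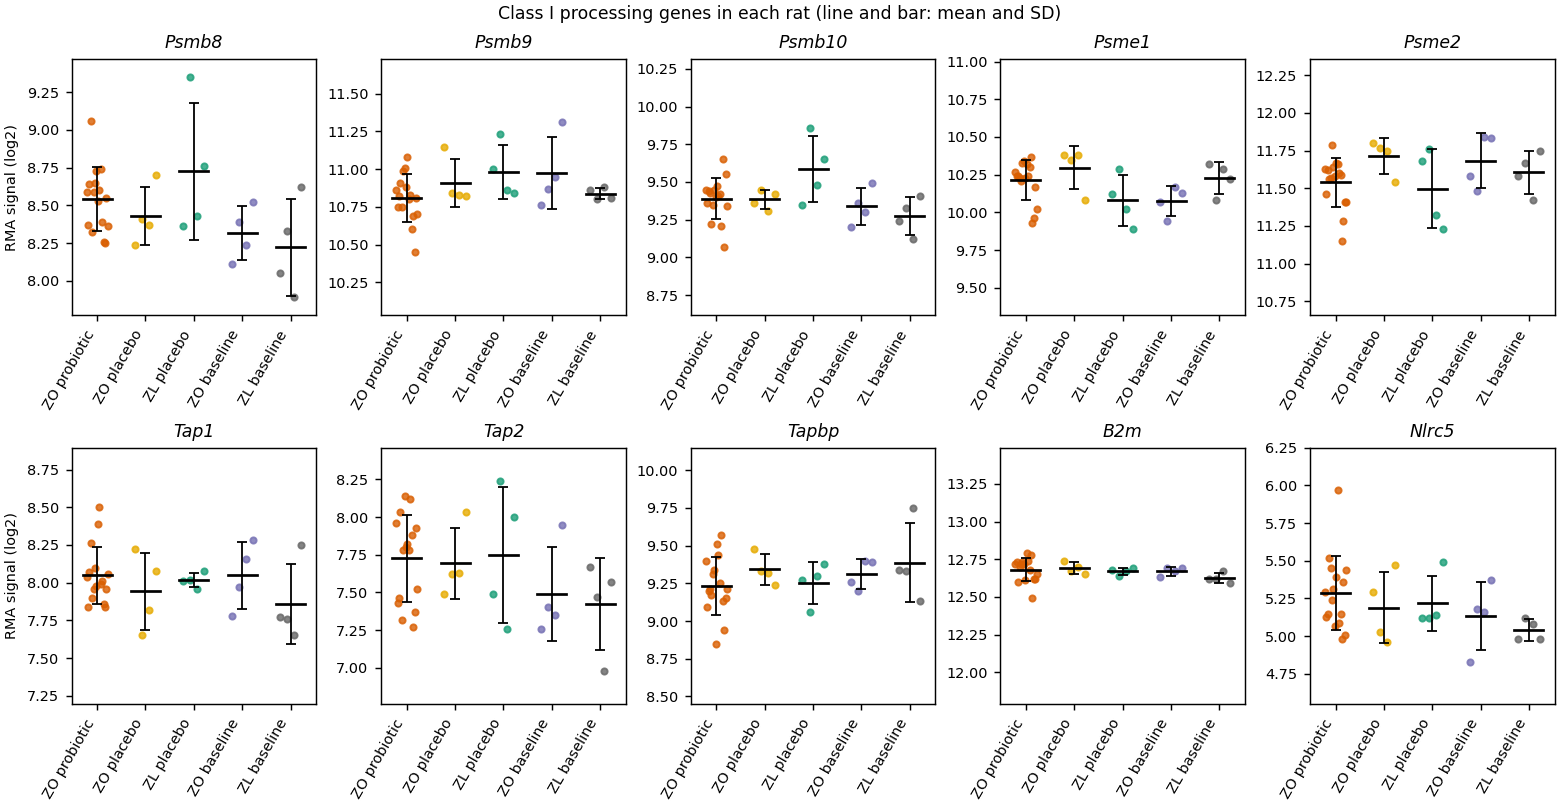
RMA signal (log2) of the 10 genes in each rat, with groups from left to right ZO probiotic (16 rats), ZO placebo, ZL placebo, ZO baseline and ZL baseline (4 rats each); points are rats, the line is the mean, the bar is the SD, and every panel spans the same height. Groups overlap in every panel, *Psmb8* and *Tap2* scatter widely, and *B2m* stays between 12.49 and 12.79.

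Among the immunoproteasome subunits, *Psmb8* (the chymotrypsin-like subunit that replaces *Psmb5*) varied most. It measured 8.36, 8.43, 8.76 and 9.35 in ZL rats on placebo, against 7.89, 8.05, 8.33 and 8.62 in ZL rats at baseline. The highest value was that of C13, and the other placebo rats lay within or just above the baseline range. The difference was 0.50 (95% interval 0.14 to 0.86, SE 0.18, limma adjusted p = 0.150), and without C13 it was 0.29 (adjusted p = 0.428). Without rat C4, the highest at ZL baseline, it was 0.63 and passed the threshold (adjusted p = 0.0430). In ZO rats *Psmb8* measured 8.24, 8.37, 8.41 and 8.70 on placebo, against 8.11, 8.24, 8.39 and 8.52 at baseline, a difference of 0.11 (interval -0.25 to 0.47). With C13 included, the 30-day change was thus 0.39 lower in ZO rats than in ZL rats, with an interval from -0.89 to 0.12 (adjusted p = 0.704). Without C13, the change of 0.29 in ZL rats stood beside that of 0.11 in ZO rats. Rats given a probiotic ran from 8.25 to 9.06 with a median of 8.57.

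*Psmb10*, which replaces *Psmb7*, followed the same order of groups. Its values were 9.35, 9.48, 9.65 and 9.86 in ZL rats on placebo, against 9.12, 9.24, 9.33 and 9.41 in ZL rats at baseline. Only the lowest placebo rat lay inside the baseline range, and C13 was again the highest. The difference of 0.31 (interval 0.11 to 0.51, SE 0.10) had an adjusted p of 0.111, or 0.22 and 0.323 without C13. On placebo, ZO rats averaged 9.39 ± 0.06 and ZL rats 9.59 ± 0.22 (SD, n = 4 each), a difference of -0.20 with an interval from -0.40 to 0.00. This difference includes C13 (9.86), with 9.35, 9.48 and 9.65 in the other ZL rats on placebo. The 16 ZO rats given a probiotic averaged 9.39 ± 0.14, also 0.20 below ZL placebo (interval -0.36 to -0.04, adjusted p = 0.165), and 0.11 below it without C13. Averaged over both genotypes, the 30-day change of *Psmb10* was 0.18 (adjusted p = 0.154) and that of *Psmb8* 0.31 (adjusted p = 0.163). Without C13 these were 0.13 (adjusted p = 0.294) and 0.20 (adjusted p = 0.331).

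*Psmb9*, which replaces *Psmb6* and whose promoter window overlaps that of *Tap1*, showed no such order. Its means were 10.81 ± 0.16 with a probiotic (SD, n = 16), 10.91 ± 0.16 in ZO placebo, 10.98 ± 0.18 in ZL placebo, 10.97 ± 0.24 in ZO baseline and 10.83 ± 0.04 in ZL baseline (SD, n = 4 each). ZO probiotic against ZL placebo gave -0.17 (interval -0.36 to 0.01), and -0.09 without C13 (adjusted p = 0.751). The constitutive subunits that these 3 displace were not called either. For ZL placebo against ZL baseline the log2 differences were 0.16 for *Psmb5*, 0.22 for *Psmb6* and 0.12 for *Psmb7*. For ZO placebo against ZO baseline they were -0.06 for *Psmb5*, 0.26 for *Psmb6* and 0.22 for *Psmb7*.

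*Psme1* and *Psme2* build the PA28 ring, which caps the proteasome and opens its gate. *Psme1* measured 10.08, 10.35, 10.38 and 10.38 in ZO rats on placebo, against 9.94, 10.07, 10.13 and 10.17 in ZO rats at baseline. Rat Z16 was the one placebo rat inside the baseline range. The difference was 0.22 (interval 0.02 to 0.41, SE 0.10, adjusted p = 0.335). In ZL rats the values were 9.89, 10.02, 10.12 and 10.29 on placebo, against 10.08, 10.22, 10.29 and 10.32 at baseline, a difference of -0.15 (interval -0.34 to 0.05). The changes of the genotypes thus ran in opposite directions and differed by 0.36 (interval 0.09 to 0.64), which did not pass after adjustment over all probe sets (adjusted p = 0.468). Against ZL placebo, ZO placebo was 0.21 higher in *Psme1* (adjusted p = 0.370) and 0.22 higher in *Psme2* (adjusted p = 0.503), or 0.29 and 0.31 without C13 (adjusted p = 0.257 and 0.375).

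*Psme2* values were 11.54, 11.75, 11.77 and 11.80 in ZO placebo, against 11.23, 11.32, 11.68 and 11.76 in ZL placebo. The ZL rats formed a low pair (C16 and C15) and a high pair (C11 and C13). In rats given a probiotic, *Psme2* ran from 11.15 to 11.79 with a median of 11.59. Their mean was 0.18 below that of ZO placebo (interval -0.37 to 0.02, adjusted p = 0.998), the widest difference of any of the 10 genes between these groups. Without rats Z51 and Z55, which lay low in most of the genes (below) and were left out after their values were seen, it was 0.13 below. The low values were not confined to these rats. Z51, Z55, Z56 and Z57 had the lowest *Psme2* of the probiotic rats (11.15, 11.28, 11.41 and 11.41), with 11.46 or more in the others. The same rats had the lowest *Psme1* (9.93, 9.96, 10.17 and 10.02), with 10.21 or more in the others. No label says whether rats of neighbouring numbers shared a strain, and a part of strain was not tested.

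The peptide transporter and its partners differed less between groups than between rats. *Tap1* averaged 8.05 ± 0.19 with a probiotic (SD, n = 16), 7.94 ± 0.26 in ZO placebo, 8.02 ± 0.05 in ZL placebo, 8.04 ± 0.22 in ZO baseline and 7.86 ± 0.27 in ZL baseline (SD, n = 4 each). *Tap2* measured 7.26, 7.49, 8.00 and 8.24 in ZL rats on placebo, against 6.98, 7.47, 7.57 and 7.67 in ZL rats at baseline, so that rats on both sides of the baseline median were found on placebo. Its difference of 0.32 had an interval from -0.11 to 0.75, and was 0.16 without C13 (adjusted p = 0.773). *Tapbp* lay between 8.85 and 9.75 over all rats, and its difference for ZL placebo against ZL baseline was -0.14 (interval -0.39 to 0.12), opposite in sign to *Tap2*. *B2m*, the invariant chain of class I, averaged 12.68 ± 0.08 with a probiotic (SD, n = 16), 12.69 ± 0.04 in ZO placebo, 12.67 ± 0.02 in ZL placebo, 12.67 ± 0.03 in ZO baseline and 12.63 ± 0.03 in ZL baseline (SD, n = 4 each). *Nlrc5* lay close to the array medians, at 4.83 to 5.97 over all rats. Its highest value was in probiotic rat Z43, which also had the highest *Tap1* (8.50).

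**Figure D2:**
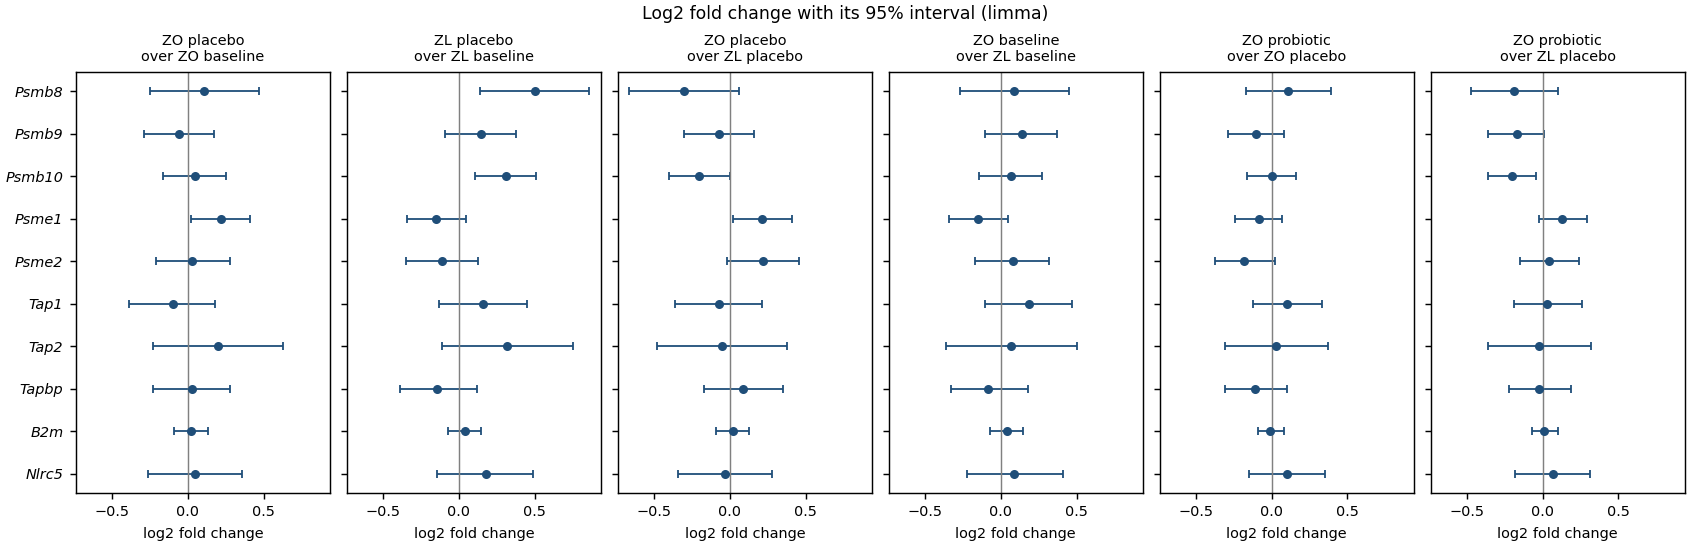
Log2 fold change of each of the 10 genes in 6 comparisons, each panel naming the group on top of the ratio first; points are estimates of 1 limma model over all 32 rats and bars are 95% intervals. The interval of *Psmb8* for ZL placebo over ZL baseline runs from 0.14 to 0.86, while those of *B2m* stay within -0.09 to 0.15.

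The intervals set bounds on the differences. For ZO probiotic against ZO placebo, the comparison the study was built on, no interval reached beyond 1.31-fold higher (*Psmb8*) or 1.29-fold lower (*Psme2*). For ZO placebo against ZO baseline the bounds were 1.55-fold higher (*Tap2*) and 1.31-fold lower (*Tap1*). For ZL placebo against ZL baseline they were 1.81-fold higher (*Psmb8*) and 1.31-fold lower (*Tapbp*). For ZO against ZL, the bounds were 1.38-fold higher (*Psme2*) and 1.58-fold lower (*Psmb8*) on placebo, and 1.41-fold higher and 1.29-fold lower (both *Tap2*) at baseline. Bounds that involve ZL placebo include C13, the rat highest in *Psmb8*. These bounds and the counts below are for the probe set used for each gene. The other *Psme2* probe set reached further. It gave -0.20 (interval -0.40 to -0.01, unadjusted limma p = 0.0389) for ZO probiotic against ZO placebo. For ZO against ZL on placebo it gave 0.30 (interval 0.05 to 0.54, unadjusted limma p = 0.0189), up to 1.45-fold higher. Neither was called (adjusted p = 0.998 and 0.302). At an unadjusted p under 0.05 limma took 1 gene for ZO placebo against ZO baseline (12.1% of all probe sets), 2 for ZL placebo against ZL baseline (16.9%), 1 for the difference between these changes (8.51%), 2 for their mean (20.1%), 1 for ZO placebo against ZL placebo (11.4%) and 1 for ZO probiotic against ZL placebo (17.6%). It took 0 for ZO baseline against ZL baseline (11.5%), ZO probiotic against ZO placebo (4.12%) and ZO probiotic against ZO baseline (18.1%). The median log2 difference of the 10 genes was 0.15 for ZL placebo against ZL baseline, beside 0.01 over all genes, and between -0.12 and 0.07 in the other comparisons.

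The spread between rats of a group separated the genes more clearly than the group means did. *B2m* had a residual SD of 0.062, lower than in all but 0.4% of genes, and its highest value over all 32 rats was 1.24-fold its lowest. It also lay near the highest value of any probe set (13.52), and whether its small spread goes with that level was not tested. *Tap2* had a residual SD of 0.311, at the 91.4 percentile, with a range of 2.39-fold. *Psmb8* followed at 0.258, the 85.3 percentile, with a range of 2.75-fold. The median over all genes was 0.16. The groups accounted for 9.3% (*B2m*) to 28.9% (*Psmb10*) of the variance of a gene, beside a median of 21% over all genes.

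After subtraction of the group means, many of the 10 genes moved together over the 32 rats. These correlations are descriptions over rats that share tissue and array platform, and no test was made. The probiotic rats had a single mean subtracted, so any difference between strains remains in the correlations. The median Pearson r of the 45 pairs was 0.33, beside 0.0 over all pairs of genes, and 9 pairs (20%) had an r over 0.5, beside 2.7% of all pairs. *Psme1* and *Psme2*, whose products form a single ring, had the highest r (0.79, Spearman 0.67). Without rats Z51 and Z55 it was 0.69. *Psme2* was the gene nearest to *Psme1* of all genes measured. *Psmb8* and the adjacent *Tap2* reached 0.77 (Spearman 0.78), and 0.74 without C13, and *Tap2* was the gene nearest to *Psmb8*. *Tapbp* and *B2m* reached 0.67, *Psmb8* and *Psmb10* 0.65, *Psmb9* and *Psme2* 0.65, and *Tap1* and its activator *Nlrc5* 0.64 (Spearman 0.57). In 6 of the 45 pairs r was below 0, with the lowest (-0.29) between *Psmb10* and *B2m*. *Tap1* and *Psmb9*, which share promoter bases, reached 0.48, and *Tap1* and *Tap2*, which form a single channel, 0.41.

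**Figure D3:**
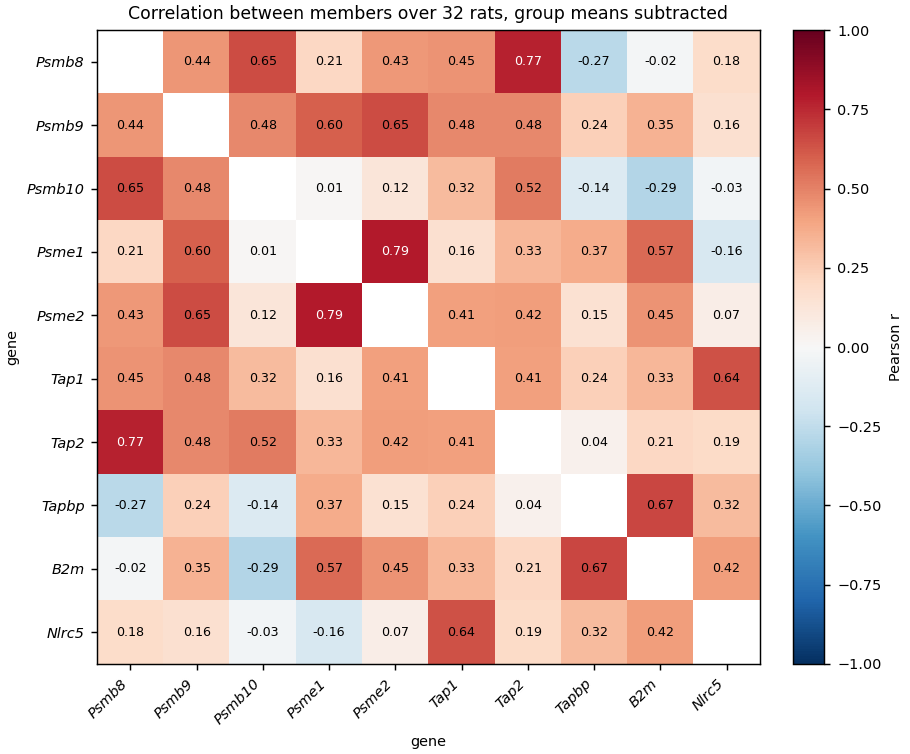
Pearson r between each pair of the 10 genes over 32 rats after subtraction of the group means, from blue (negative) to red (positive). *Psme1* with *Psme2* (0.79) and *Psmb8* with *Tap2* (0.77) are the strongest pairs, and *Psmb10* with *B2m* (-0.29) is the lowest.

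The rats at the ends of this shared variation were spread over several groups. Each gene was divided by its residual SD and averaged over the 10 genes per rat. Rats Z55 and Z51, both given a probiotic, lay lowest (-1.34 and -1.18), each with 9 of the 10 genes below the mean of their group. *Psmb10* of Z51 (9.65) was instead the highest of its group. Next was Z1 of ZO baseline at -0.81, with 10 of 10 genes below. Z4 of the same group was the highest rat of all at 0.97, with 0 of 10 below. The probiotic rats Z41 (0.96) and Z43 (0.89) and the ZL placebo rat C13 (0.87) came next. Among the probiotic rats, Z51, Z55, Z56 and Z57 all lay below 0 (-1.18, -1.34, -0.24 and -0.44). Z41, Z43, Z45 and Z46 all lay above 0 (0.96, 0.89, 0.23 and 0.15), and those numbered Z21 to Z36 lay on both sides. A part of strain in this variation was not tested, as no strain is labelled. Z51 also had the lowest *Fabp2* (13.17), and Z41 the highest (13.41). The enterocyte marker *Vil1* was lowest in Z1 (12.03) and highest in C13 (12.39). *Alpi*, another enterocyte marker, was highest in C13 (12.77) but lowest in Z4 (11.45), the rat highest over the 10 genes. Whether the cell content of the samples has a part in this was not tested.

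**Figure D4:**
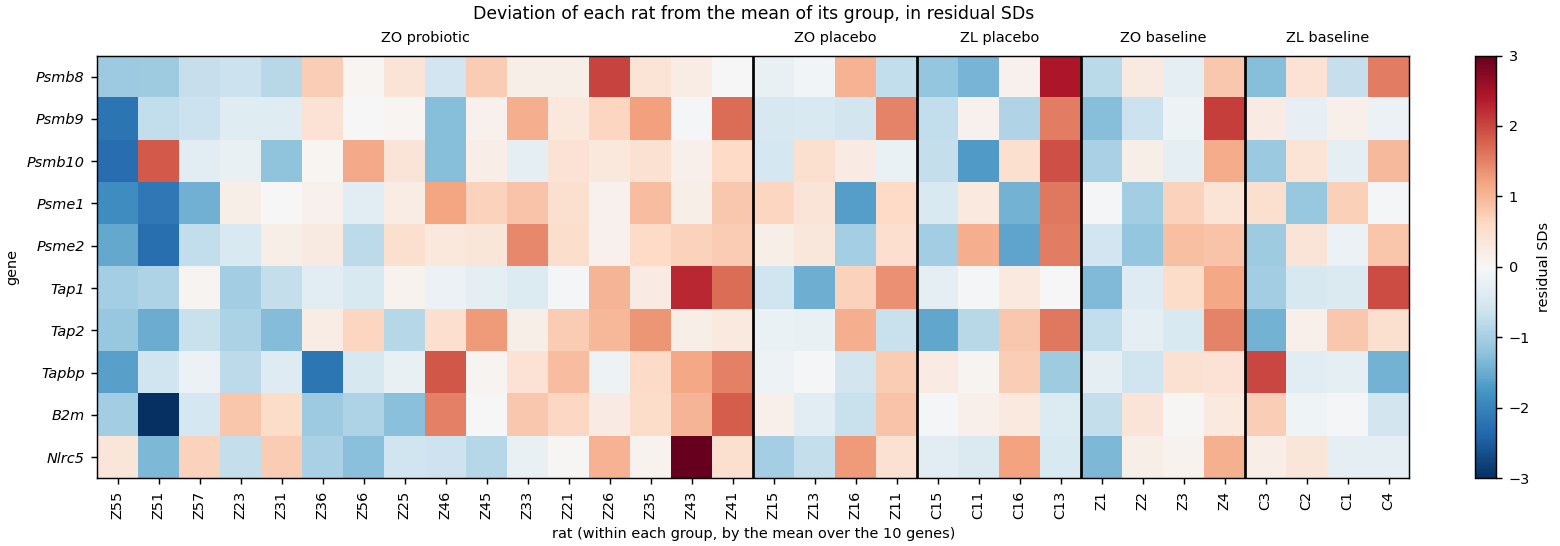
Deviation of each of the 10 genes (rows) in each of 32 rats (columns) from the mean of its group, in residual SDs, with rats ordered within their group by their mean over the genes. Z55 and Z51 are blue in 9 of 10 rows, and Z4 is red in 10 of 10.

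The genes most like the mean of the 10, by Pearson r over the 32 rats, were *Psmf1* (0.83), which encodes an inhibitor of the proteasome, *Sdhc* (0.82), *Cox8a* (0.81) and *Ndufb11* (0.75), subunits of the respiratory chain, and the lectin *Lgals9* (0.75). The 10 genes had different companions when taken singly. Among the 20 genes most like *Tap2*, 12 lay on chromosome 20, which holds 2.96% of the 17190 genes with a known chromosome. They included *G4* (0.81), the class I heavy chain genes *RT1-CE3* (0.80), *RT1-CE4* (0.76) and *RT1-CE10* (0.73), and *Psmb8*. *RT1-CE3* ran from 7.82 to 9.88 over the rats. *RT1-CE* genes are a family of near-identical sequences that differ between haplotypes, so their probe sets cannot be assigned to single genes with certainty. The other 9 genes had 0 to 3 of their nearest 20 on their own chromosome.

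*Tap1* was most like *Irgm* (0.73), a GTPase that interferon induces in mouse, *Psmf1* (0.72), *Helz2* (0.71), *Usp42* (0.70) and the RNA editing enzyme *Adar* (0.67). Of its nearest 20 genes, 2 were on the list of interferon-stimulated genes, *Irgm* and *Irf7* (0.62), which holds 23 of the 17245 genes measured. The list is short, so 2 is not a full count of interferon-induced genes among the 20. *Helz2*, *Adar*, *Herc6* (0.63), *Oasl2* (0.62) and *Dhx58* (0.61), for example, are not on it. *Nlrc5* was most like *Acot12* (0.68), *Myzap* (0.66) and *Cflar* (0.66). Its nearest 20 shared *Sytl3* (0.66), *Adar* (0.61) and *Irf9* (0.60) with the nearest 20 of *Tap1*. These genes were picked after their values were seen. Over the 23 measured genes of the interferon-stimulated list, the median r was 0.37 with *Tap1*, 0.36 with *Psmb9* and 0.31 with *Nlrc5*, but 0.10 with *Psmb10* and 0.09 with *Psme1*. Over the 10 MHC class II genes it was 0.16 with *Tap1*, 0.31 with *Psmb9* and 0.31 with *Nlrc5*. *Psmb10* (0.55), *Psmb9* (0.49), *Psme2* (0.46) and *Psmb8* (0.45) had their highest median r with the 13 genes of the constitutive proteasome core, while *Tapbp* had -0.31 with the same list.

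*Psme2* was most like *Uqcr11* (0.84), a subunit of respiratory complex III, *Lsm3* (0.82), an RNA-binding protein of the spliceosome, *Mrpl53* (0.81) of the mitochondrial ribosome, *Uqcrh* (0.81), also of complex III, and *Scoc* (0.80). It ran against the 4 measured smooth muscle markers (median r -0.61), as did *Psme1* (-0.49). *Psme2* also ran against the fibroblast (-0.37) and endothelial (-0.35) markers, as did *Psme1* (-0.37 and -0.32). The mean level of the smooth muscle markers ran from 6.11 to 8.10 in ZO probiotic, 6.83 to 7.47 in ZO placebo, 6.69 to 8.02 in ZL placebo, 5.87 to 7.17 in ZO baseline and 6.0 to 8.28 in ZL baseline. The part of muscle, fibroblast or endothelial content in the levels of *Psme1* and *Psme2* was not tested. *B2m* was most like *Zg16* (0.86), a goblet cell secretory protein, and the lymphocyte genes *Cd7* (0.76) and *Ptprcap* (0.74). Its median r was 0.49 with the 3 measured goblet cell markers and 0.31 with the 12 T and cytotoxic lymphocyte markers.

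**Figure D5:**
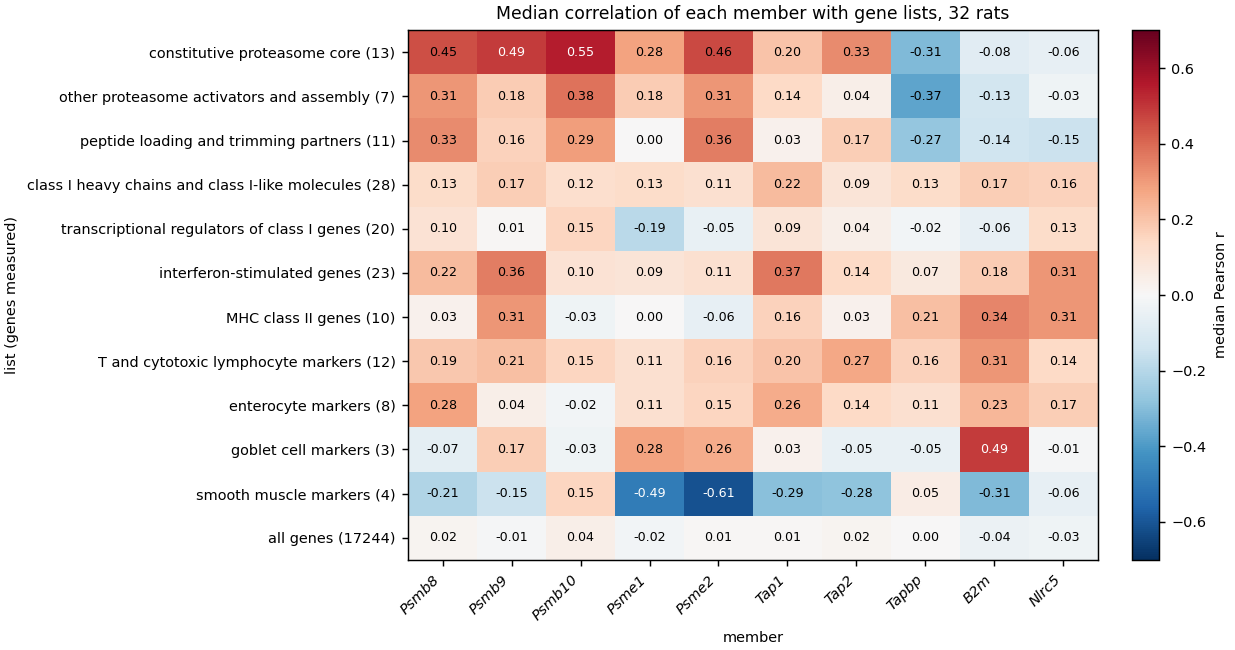
Median Pearson r of each of the 10 genes (columns) with the measured genes of the lists shown (rows, with their number) over 32 rats after subtraction of the group means. The bottom row gives the median over all genes. The B and plasma cell, macrophage, dendritic cell, fibroblast and endothelial markers are not shown. *Psmb10* reads 0.55 with the constitutive core, *Tap1* 0.37 with interferon-stimulated genes, *B2m* 0.49 with goblet cell markers and *Psme2* -0.61 with smooth muscle markers.

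Around the 10 genes, few members of the related lists were called. For ZO placebo against ZO baseline, 0 of 13 genes of the constitutive core, 0 of 11 loading and trimming partners, 0 of 28 class I heavy chain and class I-like genes, 0 of 20 regulators and 0 of 23 interferon-stimulated genes passed in either direction. Of the MHC class II genes, which present peptides from endosomes to CD4+ T cells, 3 of 10 rose: *RT1-Da* by 0.96 (adjusted p = 0.00529), *RT1-Db1* by 0.76 (adjusted p = 0.0213) and the invariant chain *Cd74* by 0.41 (adjusted p = 0.00728). With only these groups in the model none of the 3 passed (adjusted p of 0.0576, 0.0722 and 0.102), and *RT1-Db1* was also lost without Z1, Z3, Z13, Z15 or Z16. The mean level of 4 B and plasma cell markers ran from 6.84 to 7.32 in ZO placebo, against 6.05 to 7.32 in ZO baseline. Of the 4, *Jchain* was called, with a rise of 1.48 (adjusted p = 0.0381), lost under 7 of 15 alternatives. The part of B and plasma cell content in the class II values was not tested. Averaged over both genotypes, the 30-day change passed in 6 of 10 class II genes, all upward, where 4.02% of all probe sets were called, and in 3 of them with only the groups compared in the model. Upward calls in that comparison also took in *Psmb4* of the core (0.33), *Rfxap* (0.28), which encodes a subunit of the RFX complex that binds class I and class II promoters, the class I-like *RT1-N2* (0.39) and the chemokine gene *Cxcl11* (0.68). Of these 4, only *Cxcl11* passed with only the groups compared in the model, and *Psmb4* was lost without C13 (adjusted p = 0.0543). *Psmb4* was lost under 6, *Rfxap* under 7 and *RT1-N2* under 13 of 23 alternatives, and *Cxcl11* under 0. The marker *Jchain* also rose in that comparison, by 1.44 (adjusted p = 0.00182), and was lost under 0 of 23.

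In ZL rats over 30 days, the tapasin-related *Tapbpl* rose by 0.30 (adjusted p = 0.0433), as did the promoter binding subunit *Nfya* by 0.63 (adjusted p = 0.0406) and *Cxcl11* by 0.84 (adjusted p = 0.0224). Without C13, *Tapbpl* (adjusted p = 0.105) and *Cxcl11* (adjusted p = 0.0908) no longer passed, and with only these groups in the model none of the 3 did (adjusted p up to 0.488). *Nfya* was lost without C1, C3, C15 or C16, *Tapbpl* also without each of these, and *Cxcl11* also without C16. All 3 were also lost under quantile normalization and under median centring, where 0.226% and 0.291% of all probe sets were called. Of the MHC class II genes, 2 of 10 rose in ZL rats, *RT1-Da* by 0.84 (adjusted p = 0.0272) and *Cd74* by 0.42 (adjusted p = 0.0151). Both passed without C13 (adjusted p = 0.0439 and 0.0213), but neither with only these groups in the model (adjusted p = 0.480 and 0.442). *RT1-Da* was also lost under quantile normalization and without C1, C15 or C16, and *Cd74* without C1. The mean level of the 7 dendritic cell markers ran from 5.37 to 6.04 in ZL placebo, against 4.97 to 5.56 in ZL baseline, beside the values of *Psmb8* and *Psmb10* given above, and its part in them was not tested. Between ZO probiotic and ZO placebo, 0 members of all 7 lists were called. For ZO probiotic against ZL placebo, where 4.66% of all probe sets were called, 3 of 20 regulators fell, namely *Socs1* by 1.26 (adjusted p = 0.00114), an inhibitor of interferon signalling, the interferon gamma receptor *Ifngr1* by 0.22 (adjusted p = 0.0314) and *Jak2* by 0.21 (adjusted p = 0.0391). In the same comparison 3 of 23 interferon-stimulated genes rose, *Isg15* by 1.00, *Ifih1* by 0.40 and *Irgm* by 0.40, and 2 fell, *Cxcl11* by 0.62 and *Gbp4* by 0.61. Without C13, *Socs1* (-1.03, adjusted p = 0.0196), *Isg15* (1.04, adjusted p = 0.0407) and *Ifih1* (0.41, adjusted p = 0.0361) still passed and the other 5 did not. *Socs1* and *Ifih1* passed under all 12 alternatives, and *Isg15* under all but the one without C15 (adjusted p = 0.0625). Of the 10 MHC class II genes, *RT1-DOb* fell by 0.74 (adjusted p = 0.0245), but did not pass without C13 (adjusted p = 0.195). The T and cytotoxic lymphocyte markers fell in 3 of 12 (*Nkg7* by 0.58, *Prf1* by 0.55 and *Klrd1* by 0.39), the dendritic cell markers in 2 of 7 (*Itgax* by 0.99 and *Flt3* by 0.78) and the macrophage markers in 1 of 8 (*Cd68* by 0.73), and none of these 6 passed without C13. The median log2 difference was -0.13, -0.22 and -0.66 for these lists in that order, and their part in the values of the 10 genes was not tested. The log2 differences of the 10 class I processing genes between these groups ran from -0.20 (*Psmb10*) to 0.13 (*Psme1*), with none called. For ZO probiotic against ZO baseline, where 5.61% of all probe sets were called, 4 of 10 class II genes rose. The regulators *Rela* (-0.29, adjusted p = 0.000443) and *Socs1* (-0.96, adjusted p = 0.0106) fell there, while *Irf2* (0.26) and the class I-like *RT1-N2* (0.45) rose. Of 12 alternatives, *Rela* was lost under 0, *Socs1* under 1, *RT1-N2* under 2 and *Irf2* under 3.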

How the data were processed

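The authors hybridised RNA of intestinal mucosa to Affymetrix Rat Gene 1.1 ST arrays and summarised probe sets by RMA; Affymetrix Expression Console is the tool in the submitters' processing notes. The deposited values are log2 RMA signals whose decimal point was lost, so that the deposited numbers are a score with no fixed range. The point was restored behind digit 2 for numbers that begin with 10 to 13, and behind digit 1 for all others, which gave values from 1.58 to 13.52; another placing moved 8 values, 0 of them in the 10 genes. A gene is the probe set with its symbol alone, the one with the highest mean where there are several (*Psme2* has 2).

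All 32 arrays entered 1 limma 3.58.1 model (R 4.3.3) of 5 group means, adjusted by Benjamini-Hochberg over all 29214 probe sets. Residual correlations, lists and promoters were computed in Python 3.11.15 with pandas 2.3.3. Depth does not apply to arrays, whose number limits the precision; the median standard error was 0.114 for 4 rats against 4 and 0.0899 for 16 against 4. In data simulated for ZO placebo against ZO baseline, 17.9% of 1.25-fold, 67.2% of 1.5-fold and 90.9% of 2-fold changes were called among 29214 probe sets. Named are the 10 genes, *Psmb5*, *Psmb6* and *Psmb7*, up to 4 called genes of a list by size, and the 5 genes most like the mean of the 10; other named genes were picked after their values were seen. The genes and lists were chosen with earlier results of these data known. Alternatives were another placing of the point, median centring, quantile normalization, array weights, a filter on dim probe sets, only the groups compared, the deposited order as a block, all probe sets of a gene, the rat number as a block, and leaving out rats.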

Additional observations from a re-analysis of the deposited data

Results flagged for a closer look

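Of 40 groups of 4 rats (4 groups for each of the 10 genes), 3 held a rat whose gap to its nearest neighbour exceeded Dixon's 95% critical value of 0.829 of the range, where chance flags about 1 in 20 groups. *Psmb9* in ZO placebo was 11.15 in rat Z11, against 10.82, 10.83 and 10.84 in the other rats of the group. *Nlrc5* in ZL placebo was 5.49 in rat C16, against 5.12, 5.12 and 5.14. *Psme1* in ZO placebo was 10.08 in rat Z16, against 10.35, 10.38 and 10.38.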

How the results depend on the processing

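Under the alternatives to each comparison, the count of the 10 genes called stayed 0 except for ZL placebo against ZL baseline, where leaving out single rats gave 0 to 1 (*Psmb8* without C4). The smallest adjusted p over the other comparisons was 0.0517, for ZO probiotic against ZL placebo. The other *Psme2* probe set, not used for the gene, passed with array weights for ZO placebo against ZL placebo (0.37, adjusted p = 0.0423). Of 90 log2 differences, none of them called, 34 changed sign under an alternative, of which the widest was 0.19. Between ZO and ZL rats of the same number, correlations of deviations ran from -0.074 to 0.277. Rats of unlike number were not compared, so whether the numbers pair the rats was not tested. With the replicate block 0 of the 10 genes were called in the 3 comparisons where it could be fitted. The share of all probe sets called for ZO placebo against ZL placebo was then 0.175%. For the other 6 comparisons, no paired analysis was possible because the groups share no rat number. The share of all probe sets called for ZL placebo against ZL baseline was 4.38% without C4 and 0.11% without C1, and for ZO placebo against ZL placebo it was 0.64% without C13 and 0.404% with only the groups compared. Without rats Z51 and Z55, chosen after seeing the data, 0 were called for the probiotic comparisons. In the data simulated for ZO placebo against ZO baseline, 17.9% of the smallest changes tried were called.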
